A study of Arabidopsis thaliana with 12 samples.

Results

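The GH9 family was followed across 12 arrays of Arabidopsis thaliana leaf RNA taken at the end of the night. GH9 stands for glycosyl hydrolase family 9, the plant cellulases. The members were the probe sets of GH9B7, GH9B8 and GH9C2 and of every other gene whose symbol in the platform annotation starts with GH9. There were 17 such probe sets among the 22810 on the array: 15 stand for 1 gene, and 2 are shared by a pair of genes each, GH9B9 with GH9B10 and GH9B14 with GH9B15. GH9B7, GH9B8 and GH9C2 were chosen with their signals on these same arrays known. Which comparison chose them is not stated, so all comparisons of them are descriptions. No p-value is printed for them, and where limma's calls include them, these are counted with nothing read from the count. The other 14 probe sets entered by name alone.

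The arrays came from 4 genotypes with 3 arrays each. Wild type was Columbia (Col0). sex1-3 is an induced mutation in the Col-0 background, affecting the glucan, water dikinase that phosphorylates starch. sex4-3 is the insertion line Salk_102567, affecting a phosphoglucan phosphatase, and ptpkis2 is the insertion line Salk_053285, affecting a related protein also called LSF1. Each mutant was a single line, so the line and the mutation cannot be told apart. All plants grew in 12 hours of light at 20 degrees Celsius, and leaves of 8 plants per genotype were taken 0.5 hours ahead of the light period. Nothing in the labels ties the arrays of a genotype to separate plants or pools. Errors and p-values therefore measure only the spread between arrays, which may be technical.

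GH9 enzymes cut internal bonds of cellulose and related glucan chains in the cell wall. Class A members are anchored in a membrane, and the best known of them, KORRIGAN, is needed for cellulose synthesis. Class B members are secreted enzymes with the catalytic domain alone, and class C members carry a carbohydrate-binding module behind it. In leaves such enzymes are known for work on the walls of growing cells, together with expansins and xyloglucan endotransglucosylase/hydrolases.

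Signals are linear MAS5 intensities, and levels of different probe sets are not comparable with each other. The level at which a signal means little was read from 27 control probe sets for bacterial dap, lys, phe, thr and trp transcripts, which leaf RNA does not hold. Nothing used here says whether such transcripts had been added to the samples. The highest of these controls lay between 8.6 and 24.2 on 11 arrays and at 143.3 on wild type replicate 2. That array also correlated with the others at only 0.586 to 0.604 across probe sets, against 0.891 to 0.93 among the other 11, and its median signal was 62.2 against 24 to 29.7. Values are therefore given with and without it. The leaf markers RCA and LHCB4.1 had signals of at least 5470 on every array, while EXPA7, a root hair expansin, had a median of 5.44 and was above all controls on 3 of 12 arrays.

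Of the 17 GH9 probe sets, 4 lay above the filter on low signal, which left out the 40% of probe sets with the lowest mean log2 signal: GH9B7, GH9B8, GH9C2 and GH9A3. The same 4 passed when wild type replicate 2 was left out. GH9B8 passed narrowly, at percentile 41.9 of the mean log2 signal. Within single arrays it lay at percentiles 12.5 to 21.5 in sex1-3 and 42.7 to 59.8 in sex4-3 and ptpkis2. Its place in the fit therefore depended on the groups where it was high. GH9B7 and GH9B8 are of class B, GH9C2 of class C, and GH9A3, also called KOR3, of class A.

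GH9B7 (AT1G75680) was the only member above all bacterial controls on all 12 arrays. Its signals were 303, 444 and 211 in wild type replicates 1 to 3, and 92.4, 86.9 and 74.7 in sex1-3. They were 272, 210 and 192 in sex4-3 and 350, 274 and 322 in ptpkis2. The sex1-3 arrays lay below all other arrays without overlap, wild type overlapped both other mutants, and the ptpkis2 arrays lay just above the sex4-3 arrays. The mean was 84.7 ± 9.06 in sex1-3 (SD, n = 3), 319 ± 117 in wild type, 225 ± 42 in sex4-3 and 315 ± 38.4 in ptpkis2. On the log2 scale sex1-3 differed from wild type by -1.85 ± 0.26 (SE of the linear model over all arrays), which is 3.61-fold lower, and by -1.58 ± 0.20 without wild type replicate 2. Against sex1-3, the log2 difference was 1.89 ± 0.26 for ptpkis2 and 1.40 ± 0.26 for sex4-3. In these bulk samples, fewer cells with the transcript and less of it per cell cannot be told apart. Signals of sex1-3 lay below wild type without overlap for 11.9% of all tested probe sets, and for 22.1% without wild type replicate 2. The shares of probe sets whose signals lay above sex1-3 without overlap were 26.1% for ptpkis2 and 17.8% for sex4-3.

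GH9C2 (AT1G64390), whose protein carries the carbohydrate-binding module, had signals of 72.4, 47.3 and 91.5 in wild type and 21.6, 10.3 and 4.74 in sex1-3. It had 106, 85.7 and 57.9 in sex4-3 and 155, 151 and 167 in ptpkis2. The sex1-3 arrays were again below all others, sex4-3 overlapped wild type, and all ptpkis2 arrays lay above all arrays of the other genotypes. Signals of ptpkis2 lay above wild type without overlap for 10.4% of all tested probe sets. In sex1-3, replicates 2 and 3 were within the range of the bacterial controls, as was wild type replicate 2, whereas the other 9 arrays were above it. The log2 difference of sex1-3 from wild type was -2.74 ± 0.47 (n = 3 per genotype), and -3.0 ± 0.45 without wild type replicate 2. It was -2.11 after quantile normalization and -2.2 with arrays centred on their medians, and was called under neither. With each array's signals raised to its highest bacterial control, and without wild type replicate 2, sex1-3 was at least 5.42-fold lower. ptpkis2 was 1.22 ± 0.47 above wild type, or 0.95 ± 0.45 without that array. The step from sex1-3 to ptpkis2 was 3.95 ± 0.47 on the log2 scale, with means of 12.2 ± 8.62 and 158 ± 8.05 (SD, n = 3). With the same floor this step was at least 10.5-fold.

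GH9B8 (AT2G32990) was not above the bacterial controls on any sex1-3 array. Its signals there were 1.48, 1.77 and 3.58, of which the first pair lay below the 20th percentile of their arrays (2.78 to 3.19). They were 34.9, 31.6 and 18.1 in sex4-3 and 42.5, 45 and 49.6 in ptpkis2, above all bacterial controls on each of these arrays. In wild type they were 10.7, 100.5 and 13.8. Only wild type replicate 3 was above the controls of its own array. Replicate 2, with the highest GH9B8 signal of all 12 arrays, was not.

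Leaving out wild type replicate 2 put the GH9B8 signals of the 4 genotypes in an order without overlap, from sex1-3 over wild type and sex4-3 to ptpkis2. On these 11 arrays, 7.65% of all tested probe sets had sex4-3 above wild type without overlap and 18.6% had ptpkis2 above it. The log2 difference of sex1-3 from wild type was -3.54 ± 0.75 with 12 arrays and -2.52 ± 0.51 with 11. That of sex4-3 was 0.14 ± 0.75 and then 1.16 ± 0.51, and that of ptpkis2 was 0.89 ± 0.75 and then 1.91 ± 0.51. The wild type mean of GH9B8 was 41.7 ± 51 with that array (SD, n = 3) and 12.2 ± 2.17 without it (n = 2). When each array's signals were raised to its highest bacterial control, with 11 arrays, sex1-3 and wild type differed by -0.15 on the log2 scale. The same step left ptpkis2 at least 3.79-fold and sex4-3 at least 2.25-fold above sex1-3.

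**Figure D1:**
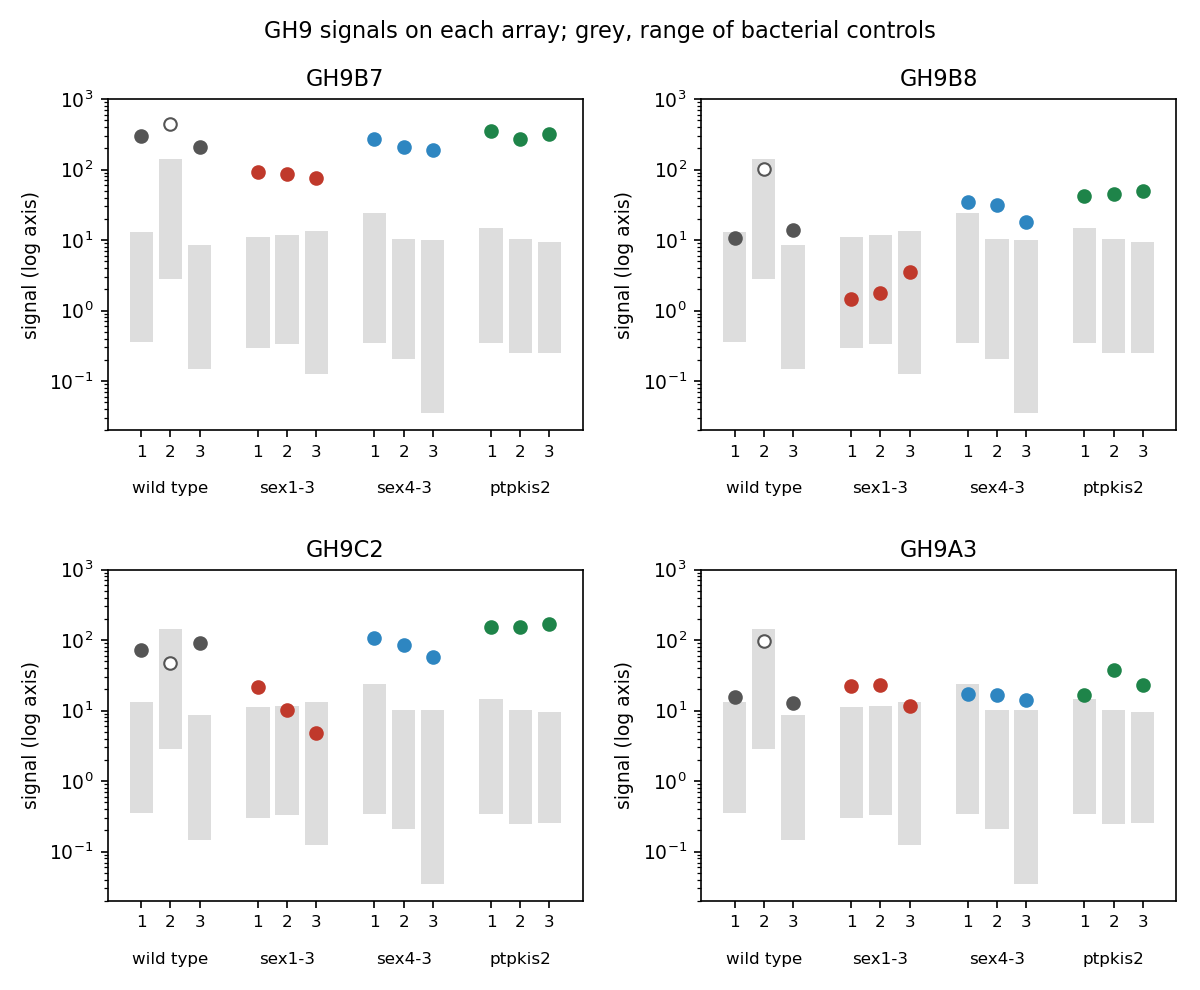
Signal (log axis) of GH9B7, GH9B8, GH9C2 and GH9A3 on each of 12 arrays, by genotype and replicate number; grey bars span the 27 bacterial control probe sets of the same array, and the open point is wild type replicate 2. GH9B7 is above the bars on 12 arrays, GH9B8 lies within them on all 3 sex1-3 arrays and on wild type replicates 1 and 2, and GH9C2 lies within them on sex1-3 replicates 2 and 3 and wild type replicate 2. GH9A3 lies within them on wild type replicate 2, sex4-3 replicate 1 and sex1-3 replicate 3.

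GH9A3 (AT4G24260), a relative of KORRIGAN that entered by name, had low signals that did not separate sex1-3 from the other genotypes. Its signals were 15.8, 95.6 and 12.9 in wild type, 22.4, 23.2 and 11.7 in sex1-3, 17, 16.6 and 14 in sex4-3 and 16.8, 38.2 and 23.4 in ptpkis2. Apart from wild type replicate 2 all lay between 11.7 and 38.2. GH9A3 was above all bacterial controls on 9 of 12 arrays. It was within their range on wild type replicate 2, sex4-3 replicate 1 and sex1-3 replicate 3. The genotypes overlapped with 12 arrays, and without that array the ptpkis2 signals lay just above the wild type ones. limma called none of the 6 comparisons. Against wild type the log2 difference was -0.56 ± 0.67 in sex1-3 (adjusted p = 0.612, 95% interval -2.04 to 0.91), -0.77 ± 0.67 in sex4-3 (adjusted p = 0.596) and -0.13 ± 0.67 in ptpkis2 (adjusted p = 0.931). Without wild type replicate 2 these turned to 0.35, 0.15 and 0.79, again without passing. The difference of sex1-3 then had an interval of -0.60 to 1.30. Between sex1-3 and ptpkis2 the difference was 0.44 ± 0.67 (adjusted p = 0.801).

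**Figure D2:**
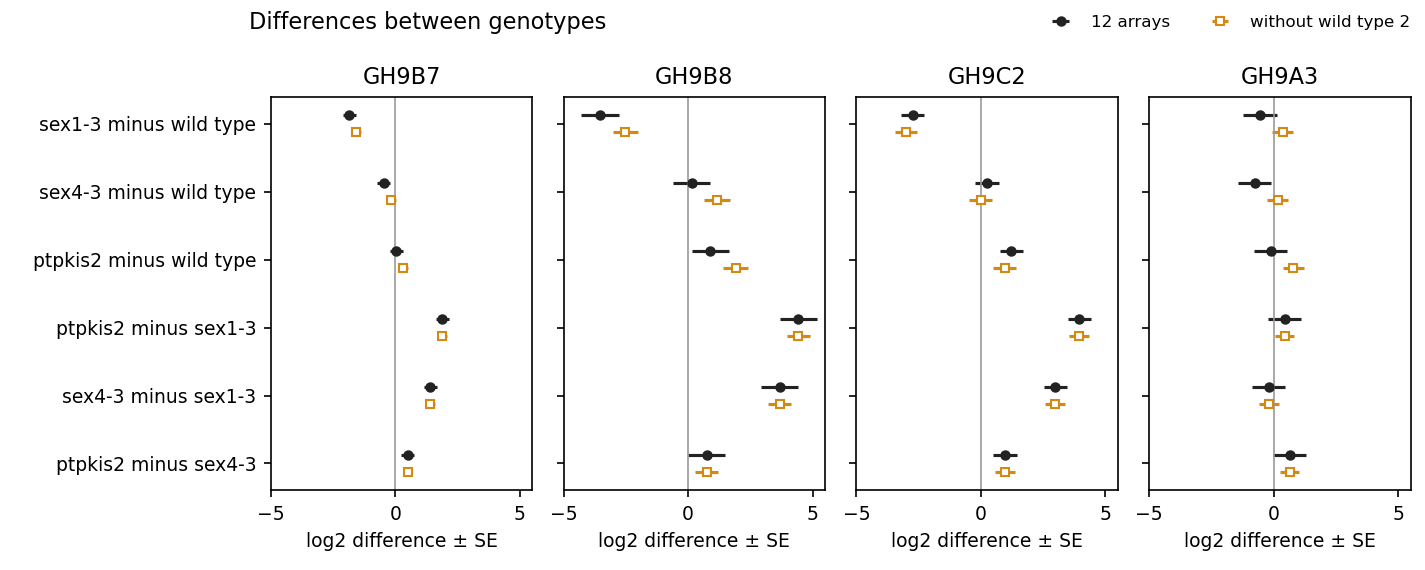
Log2 difference ± SE of each of the 4 members above the filter in 6 comparisons of genotypes, with 12 arrays (filled circles) and without wild type replicate 2 (open squares). GH9B7, GH9B8 and GH9C2 lie left of 0 in sex1-3 minus wild type and right of 0 in both other mutants minus sex1-3, and the 3 comparisons of GH9A3 with wild type move from below 0 to above 0 without that array.

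Among the 4 members above the filter, limma called 3 lower in sex1-3 than in wild type, where 1.87% of all 13647 tested probe sets were called lower. It called 3 higher in ptpkis2 than in sex1-3, where 5.28% of all were, and 3 higher in sex4-3 than in sex1-3, where 1.63% were. Each time these were GH9B7, GH9B8 and GH9C2, which had been chosen with their signals known. They stayed at 3 without wild type replicate 2, where 5.64%, 16.8% and 8.39% of all probe sets were called in these directions. With arrays centred on their medians, the counts were 1, 3 and 1. For sex1-3 against wild type the member left was GH9B8, whose sex1-3 signals all lay within the range of the bacterial controls, while GH9B7 and GH9C2 were no longer called. Comparisons that share the sex1-3 arrays are not independent of each other.

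No member was called between sex4-3 and wild type (0 of 4 in limma, with 0 at an unadjusted p below 0.05 on 12 arrays and 1 on 11), where 0.00733% of all probe sets were called with 12 arrays and with 11. For ptpkis2 against wild type the count was also 0 of 4, with 1 below 0.05 unadjusted on 12 arrays and on 11, and 0.264% of all probe sets were called, or 2.7% without wild type replicate 2. Between ptpkis2 and sex4-3 it was 0 of 4, with 0 below 0.05 unadjusted on 12 arrays and 2 on 11, and 0.0659% of all were called, or 1.66% with 11 arrays. GH9B7, GH9B8 and GH9C2 had all 3 ptpkis2 signals above all 3 sex4-3 signals, as did 11.2% of all probe sets tested. The signals of these arrays were known when the 3 genes were chosen, so nothing is read from this separation. The differences were 0.50 ± 0.26, 0.75 ± 0.75 and 0.97 ± 0.47 on the log2 scale, and that of GH9A3, whose signals overlapped, was 0.64 ± 0.67.

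The other 13 GH9 probe sets fell under the filter and are described by their signals. They hold GH9A4 of class A, GH9C1 and GH9C3 of class C, and 10 probe sets of class B. On the 11 arrays without wild type replicate 2 they gave 143 signals, of which 29 (20.3%) were above all bacterial controls of their array and 75 were below its 20th percentile. On the same arrays, 52.5 to 70.1% of all probe sets were above all controls. The 13 were set apart by their low signal, so a lower share than over all probe sets was built in. Nothing about the family is read from it. On wild type replicate 2 none of the 13 was above the controls, although their median signal was 45.1 there, against 1.93 to 7.86 on the other arrays.

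GH9B6 and GH9B11 were below the 20th percentile on each of those 11 arrays, with signals of 0.54 to 2.88 and 0.24 to 3.38. GH9B12 was above all controls on 0 of 12 arrays. GH9B11 and GH9B12 stand side by side in the annotation with GH9B9 and GH9B10, and the probe set shared by the latter pair was above the controls on 1 array. GH9B16, GH9B17 and GH9B18 form another run of neighbouring genes. Of these, GH9B17 was above the controls on 1 array and GH9B16 on 3, with no genotype having more than 1. The probe set of GH9B14 and GH9B15 was above them on 3 arrays, GH9C3 on 3, and GH9C1, GH9B13 and GH9A4 on 2 each.

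GH9B18 (AT4G39010) and GH9B5 (AT1G19940), both of class B, were above the controls on more arrays than the other 11, on 6 each. GH9B18 had signals of 17, 18.4 and 19.1 in ptpkis2, 2.07, 16.9 and 22.4 in sex4-3, 2.21, 8.48 and 8.57 in sex1-3, and 6.72, 76.4 and 9.15 in wild type. Its ptpkis2 signals were above all controls and above every sex1-3 signal, while sex4-3 spanned both. Signals of ptpkis2 lay above sex1-3 without overlap for 26.1% of all tested probe sets, so nothing is read from this. GH9B5 had 16.9, 15.4 and 9.93 in ptpkis2, 0.61, 10.6 and 14.1 in sex4-3, 1.94, 6.66 and 13.8 in sex1-3, and 3.13, 112 and 3.24 in wild type, so that ptpkis2 overlapped both other mutants. When limma was run with no filter, it called none of the 13 in any of the 6 comparisons. At an unadjusted p below 0.05 it then gave GH9B13 for sex1-3 against wild type (-2.72 ± 1.23, adjusted p = 0.32) and GH9C1 for sex4-3 against wild type (-3.44 ± 1.25, adjusted p = 0.64). GH9C1 was within the range of the controls on all arrays of both genotypes.

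**Figure D3:**
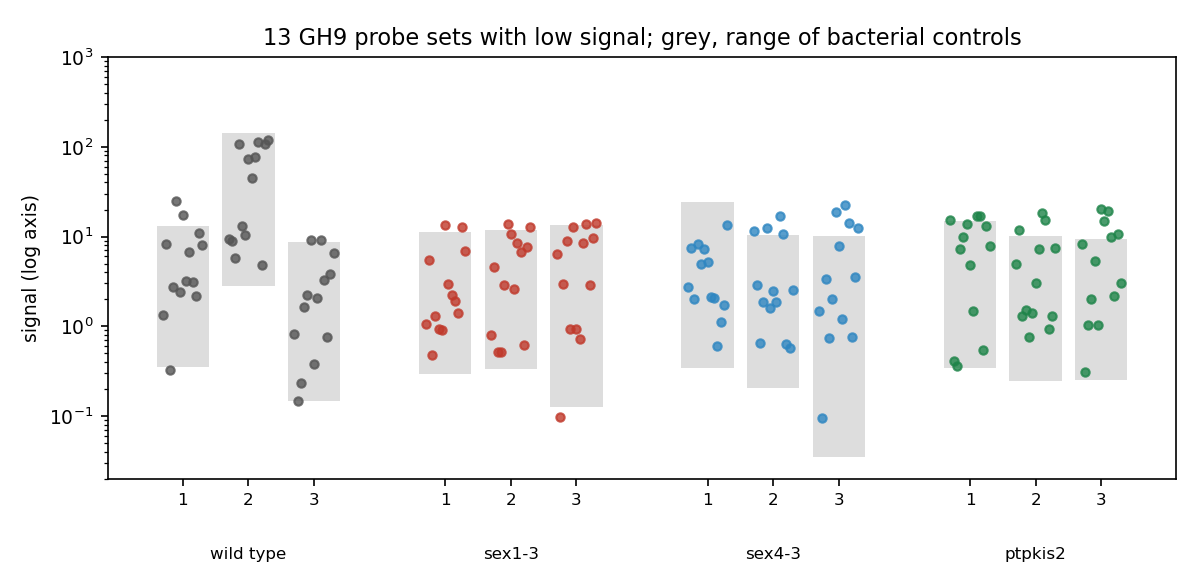
Signals (log axis) of the 13 GH9 probe sets under the filter on each array, by genotype and replicate number, with grey bars spanning the 27 bacterial controls of that array. Most points lie within the bars on every array, and on wild type replicate 2 points and bars are shifted up together.

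A list of 25 GH9 genes was written from memory, and each was then looked up in the RefSeq table, which was not searched for others. For 6 of them, GH9A1 (KORRIGAN), KOR2, GH9B1, CEL2, CEL3 and CEL5, no named probe set stands here, and they were not analysed. The account therefore covers 19 of the 25 listed genes, and lacks the class A member that is best known for cellulose synthesis.

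Other wall genes were taken from lists by symbol. Expansins, which loosen walls without cutting them, had 18 named probe sets, and 9 passed the filter. None of the 9 tested was called between sex1-3 and wild type with 12 arrays in limma (4 of 9 at an unadjusted p below 0.05). Their median log2 difference was -0.71, beside -0.02 over all probe sets tested. Without wild type replicate 2 the median was -0.47 beside -0.06, and EXPA8 fell (-0.93 ± 0.23, adjusted p = 0.021). On these arrays EXPA8 in ptpkis2 lay only 0.19 above sex1-3 (adjusted p = 0.52). It was called lower in ptpkis2 than in sex4-3 (-0.88, adjusted p = 0.047), where 1.66% of all probe sets were called. EXPA16 went the other way in sex1-3 against wild type (1.21, adjusted p = 0.076), without passing. Between ptpkis2 and sex1-3, 2 of 9 were higher in ptpkis2, namely EXLB1 (1.56 ± 0.43, adjusted p = 0.044) and EXPB1 (1.27 ± 0.36, adjusted p = 0.048), which were named after their values were seen. Of all tested probe sets, 5.28% were called higher there. Without wild type replicate 2 the count was 5, and the share of all probe sets was 16.8%. Between sex4-3 and sex1-3 the count was 0 (3 of 9 at an unadjusted p below 0.05), beside 1.63% of all, or 2 without that array, beside 8.39%. EXPA8 and EXPA16 were likewise named after their values were seen. Of the expansins under the filter, which were left out of this fit, EXLA2 had signals of 1.13 to 1.58 in sex1-3, within the range of the bacterial controls. They were 14 to 16 in wild type without replicate 2, 10.2 to 30.2 in sex4-3 and 26.6 to 36.9 in ptpkis2. Wild type replicate 2 had 27.3, below the highest control of that array (143.3). Signals of sex1-3 lay below wild type without overlap for 11.9% of all tested probe sets. Not all expansins under the filter shared this order. EXPB2 had means of 16.4 in sex1-3 and 7.24 in wild type without replicate 2, and EXPB5 had 13.2 and 7.95. EXLA2, EXPB2 and EXPB5 too were named after their values were seen, so nothing is read from them. The rest under the filter are not described.

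Xyloglucan endotransglucosylase/hydrolases, which cut and rejoin the xyloglucan that ties cellulose fibrils, had 9 named probe sets, and 3 passed the filter. XTH32 (AT2G36870) fell in sex1-3 (-1.84 ± 0.33, 3.58-fold lower, adjusted p = 0.012, and -1.43 without wild type replicate 2). Its mean signal was 34.8 ± 4.05 in sex1-3, 135 ± 72.6 in wild type, 104 ± 19.1 in sex4-3 and 150 ± 28.9 in ptpkis2 (SD, n = 3). It was also higher in ptpkis2 (2.1 ± 0.33, adjusted p = 0.002) and in sex4-3 (1.57 ± 0.33, adjusted p = 0.027) than in sex1-3. XTH32 was named for its low sex1-3 signals, and these comparisons share those arrays, so they are not independent of the first. Of all tested probe sets, 1.87% were called lower in sex1-3 than in wild type. The shares called higher than in sex1-3 were 5.28% for ptpkis2 and 1.63% for sex4-3. XTH16 (-1.85 ± 0.60, adjusted p = 0.13) and XTH33 (-0.26 ± 0.38, adjusted p = 0.68) did not pass in sex1-3 against wild type. Without wild type replicate 2, limma called XTH16 higher in ptpkis2 than in sex1-3 (1.53, adjusted p = 0.014), beside 16.8% of all probe sets. Of the cellulose synthesis list, COB, which guides the orientation of cellulose deposition, was the single gene with a named probe set, at 0.56 ± 0.37 in sex1-3 against wild type (adjusted p = 0.39) and -0.03 without wild type replicate 2.

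Genes with the profile most like each of the 3 chosen members were found among 7390 probe sets with 1 gene, by the root mean square (RMS) difference of log2 signals over 11 arrays, each profile centred on its own mean. For GH9B7 they were AT4G18030, AT5G45650 and VTC4, an enzyme of ascorbate synthesis, with RMS differences of 0.17, 0.19 and 0.20 on the log2 scale. VTC4 had mean signals of 77 in sex1-3, 190 in sex4-3, 213 in wild type and 258 in ptpkis2. For GH9B8 they were AT5G22460, AT2G32220 and AT4G26790 (0.51, 0.53 and 0.66), and for GH9C2 AT4G30020, AT4G38660 and AT1G70985 (0.47, 0.48 and 0.54). All 9 had their lowest mean in sex1-3 and their highest in ptpkis2, as had the members they were picked to resemble, so nothing is read from this order. Among the 3 GH9 genes the RMS differences were 0.86 between GH9B8 and GH9C2, 0.92 between GH9B7 and GH9C2 and 1.15 between GH9B7 and GH9B8. All used the same 11 arrays. The nearest of many candidates are close by selection, so the values within the family are not ranked against theirs.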

How the data were processed

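The submitters' processing notes name MAS5 and GCOS, with no version. The deposited values are linear signal intensities, 1 for each probe set on each array. Their mean after trimming 2% at each end came to 100 on all 12 arrays, which shows a scaling step before deposit. Log2 values were taken with no pseudocount. After 64 control probe sets and the 40% with the lowest mean log2 signal were left out, 13647 probe sets were fitted with limma 3.58.1 in R 4.3.3 (group means of 4 genotypes, 12 arrays, eBayes with a trend, 8 residual degrees of freedom). The 6 comparisons were two-sided, with Benjamini-Hochberg adjustment over all fitted probe sets and calls at an adjusted p below 0.05. The fit was tested on simulated data. Precision is limited by the number of arrays.

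Symbols came from the platform annotation (13513 probe sets with 1 symbol, 503 with several, 8730 unnamed here), updated through a RefSeq table of TAIR10.1 that held 13436 of the first kind and served for names and neighbours only. The members and lists were chosen with earlier results of these data known. All members were named. Of the other lists, the rule was to name genes called between sex1-3 and wild type, by largest difference, up to 3 each. With 12 arrays only XTH32 met it. EXLB1, EXPB1, EXPA8, EXPA16, XTH16, XTH33 and COB were named outside this rule, as were EXLA2, EXPB2 and EXPB5, which lay under the filter. For each of the 3 chosen members the 3 most similar genes were named. The use of the bacterial controls was chosen after seeing the data. No named probe set stood for a mutated gene, so the genotype labels were not checked by their transcripts. Alternatives were other scaling (median centring, quantile), floors and a pseudocount, other filters, each array left out, a replicate block and fits of single pairs of genotypes.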

Additional observations from a re-analysis of the deposited data

How the results depend on the processing

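The count of GH9 probe sets called was 3, 0, 0, 3, 3 and 0 for sex1-3, sex4-3 and ptpkis2 against wild type, ptpkis2 and sex4-3 against sex1-3, and ptpkis2 against sex4-3. For sex1-3 against wild type it became 1 under median centring, where GH9B8 was left, and 0 with these genotypes alone, a fit with 6 arrays. For sex4-3 against sex1-3 it became 1 under median centring and ranged from 1 to 3 when each array was left out in turn (2 to 3 for sex1-3 against wild type), with 1 without sex4-3 replicate 1 or 2 and without sex1-3 replicate 2 or 3. For ptpkis2 against sex4-3 it became 1 with these genotypes alone. With signals raised to the highest bacterial control and without wild type replicate 2, a setting chosen after seeing the data, it became 1 for ptpkis2 against wild type. Median centring shifted the median difference over all tested probe sets, in sex1-3 against wild type, from -0.02 to 0.52, and GH9B7 from -1.85 to -1.31, which is the same step. In 135 other combinations of comparison and setting the count stayed within 1.5 times the first value. Quantile normalization gave 2 for sex1-3 against wild type, where GH9C2 was lost, and 2 for sex4-3 against sex1-3, where GH9B7 was lost. The cause of the changes was not tested.

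GH9A3 changed sign against wild type. Leaving out each array in turn gave -1.09 to 0.35 in sex1-3, -1.29 to 0.15 in sex4-3 and -0.66 to 0.79 in ptpkis2, where the lowest came without wild type replicate 3 and the highest without wild type replicate 2; with the control floor 0.42, 0.32 and 0.79, and in ptpkis2 also 0.18 under median centring and 0.15 without ptpkis2 replicate 1. GH9B8 in sex1-3 against wild type was -2.55 with signals floored at the 20th percentile and -2.25 with it as a pseudocount, and was called under neither. Its difference of sex4-3 from sex1-3, 2.69 and 2.30 under these settings, was not called either.

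The replicate numbers in the titles did not pair the arrays: deviations of same-numbered arrays correlated at -0.07 to 0.11, over 0.1 in 2 of 18 pairs, and 5 of 12 arrays correlated best with their own number. With the replicate number as a block, the GH9 counts were again 3, 0, 0, 3, 3 and 0, and all calls went from 403 to 305 for sex1-3 and from 36 to 12 for ptpkis2 against wild type. Signals under the bacterial controls limit what can be said of the 13 low members.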
